A study of Mus musculus with 4 samples.

Results

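Integrator is a large nuclear protein complex that binds RNA polymerase II and cuts the RNA it is making. It processes the 3' ends of spliceosomal small nuclear RNAs and ends transcription early at many protein-coding genes. Its cutting module holds the endonuclease Ints11, the related but catalytically inactive Ints9 and the scaffold Ints4, and a second module carries protein phosphatase 2A, which removes phosphates from the polymerase. The mRNA levels of 10 Integrator subunit genes are described here, out of 35905 genes in the annotation. Ints9 was chosen by its measured counts, because an earlier analysis of the same libraries had found it apart between the genotypes, and the other 9 (Ints1, Ints3, Ints4, Ints6, Ints8, Ints10, Ints11, Ints13 and Ints14) were taken because they belong to the same complex. The question was whether they followed Ints9. Since that contrast chose Ints9, its values are a description, with no test.

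RNA was sequenced from cells of the LLC (Lewis lung carcinoma) line, which arose in a C57BL/6 mouse, grown under the skin of the flank of C57BL/6 mice and collected 4 weeks after implantation. TdTomato-positive, CD45-negative cells were sorted from the digested tumours, with 2 libraries from WT hosts and 2 from PAD4-DN hosts. Every host carried floxed Padi4 (Padi4 fl/fl); WT hosts lacked Mrp8Cre and PAD4-DN hosts carried it, a Cre driver active in neutrophils. The deletion was thus in the host and not in the implanted line, and Padi4 counts of 0 and 2 (WT) and of 6 and 0 (PAD4-DN) check neither the deletion nor the labels. The ages of the hosts are not given in the labels, and nothing states that replicates came from separate mice, so the spread behind each p-value is that between these libraries and may be technical.

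The libraries held between 20036322 and 25327974 estimated counts. Of the epithelial markers, Krt8 and Krt18 were abundant (158 to 217 counts in a library scaled to 1000000, or CPM), while no library held more than 7 counts of Epcam or Cdh1. The 4 leukocyte markers summed to 8.04 and 6.86 CPM in WT hosts against 17.0 and 1.68 CPM in PAD4-DN hosts. The libraries stood apart in a way that crossed the genotypes: Col1a1, a fibrillar collagen chain, was at 16.0 and 531 CPM in WT replicates 1 and 2 and at 652 and 16.9 CPM in PAD4-DN replicates 1 and 2. Over the 7 fibroblast markers the sum was 9108 to 10704 CPM in WT and 8561 to 14435 CPM in PAD4-DN. All 6 neutrophil markers tested were positive (median log2 fold change 0.65), against 51.5% of all genes. All were low, S100a9 being the highest at 7.07 CPM in PAD4-DN replicate 1. Of them, 2 were above WT without overlap, against 15.4% of all genes: Cxcr2 (2.42 and 1.71 against 3.61 and 3.94 CPM) and Mmp8 (0.396 and 0.159 against 1.37 and 0.629 CPM). Of the 3 epithelial markers tested, 2 were below WT without overlap, against 17.4% of all genes: Krt18 (210 and 188 against 178 and 158 CPM) and the low Krt19 (1.19 and 1.35 against 0.732 and 0.377 CPM). Their part in the results that follow was not tested. None of the 7 marker lists (leukocyte, macrophage, neutrophil, fibroblast, endothelial, erythroid and platelet, epithelial) had a summed level that separated the genotypes.

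Ints9 mRNA stood at 10.02 CPM in the first WT library and 11.2 CPM in the second, and at 25.2 and 23.7 CPM in the first and second PAD4-DN libraries. Both PAD4-DN libraries were well above both WT libraries, and each pair of replicates lay close together. The estimated counts behind these values were 228, 283, 517 and 565. The log2 fold change, PAD4-DN minus WT, was 1.20 (SE 0.15, n = 2 libraries each), a fold of 2.30. Set against the Col1a1 split, the log2 ratio was 1.17 between the libraries with high Col1a1 (PAD4-DN replicate 1 over WT replicate 2). Between those with low Col1a1 it was 1.24. With both PAD4-DN libraries above both WT libraries, any such pairing gives positive ratios, so these values are a description only. In bulk RNA, fewer cells with a transcript and less of it per cell cannot be told apart. Of all genes tested, 2% had a log2 fold change of at least 1.

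The other 9 subunits did not show a change of that size. Over the 13718 genes tested by edgeR's quasi-likelihood test with Benjamini-Hochberg adjustment, 0 (0%) passed a false discovery rate of 0.05, and 364 (2.65%) had an unadjusted p under 0.05. DESeq2 called 11 of the 13718 (0.0802%), and none of the 9 subunits was among them. All 10 listed genes passed the low-count filter. Of the 9, 4 had a positive log2 fold change and 5 a negative one, against 51.5% positive over all genes, and 0 of the 9 had an unadjusted p under 0.05. Their median log2 fold change was -0.06, beside 0.01 over all genes tested, with a range from -0.35 (Ints1) to 0.29 (Ints8). The adjusted p was 0.988 for each of them by the same edgeR test, except 0.998 for Ints13. No gene passed that test, so the edgeR adjusted p does not set the 9 apart from Ints9. Ints9 was among the 11 genes that DESeq2 called, but this contrast chose it, so the call is no test of Ints9. The highest upper bound of their 95% intervals was 0.75, for Ints8. In CPM, both PAD4-DN libraries lay above both WT libraries for 1 of the 9 (15.4% of all genes) and below both for 4 (17.4% of all genes).

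**Figure D1:**
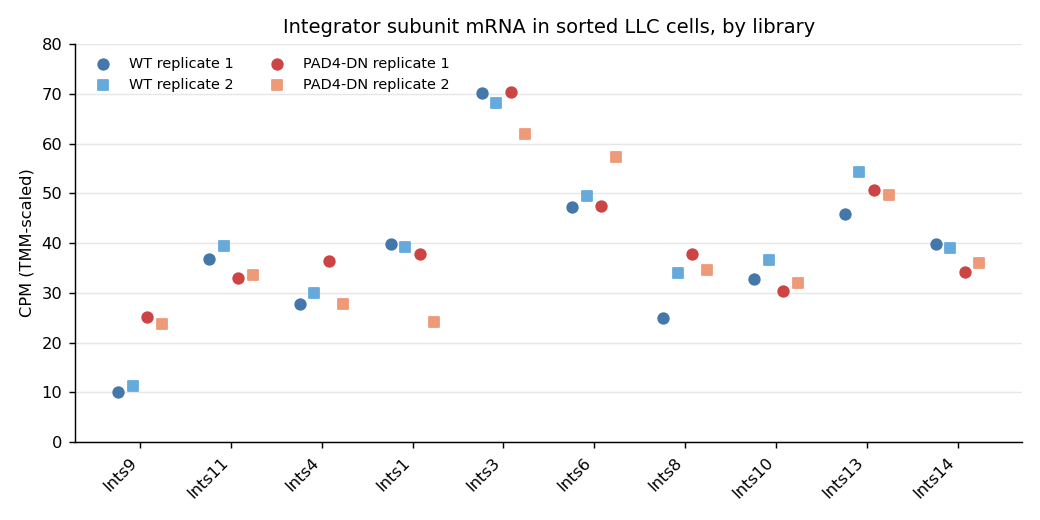
CPM (scaled by TMM, a normalization of library size) on the vertical axis for the 10 listed Integrator genes, with 1 point per library and colours and shapes for genotype and replicate. Ints9 lies near 10 CPM in both WT libraries and near 24 in both PAD4-DN libraries, and no other gene plotted shows so wide a gap between the genotypes in proportion to its level.

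Ints9 acts with Ints11 and Ints4 in the cutting module, and neither partner followed it. Ints11, the endonuclease, was at 36.8 and 39.5 CPM in WT hosts against 32.9 and 33.7 CPM in PAD4-DN hosts. Both PAD4-DN values were below both WT values, on the opposite side from Ints9. Its log2 fold change was -0.20 (SE 0.12), with a 95% interval from -0.50 to 0.11. Ints4 was at 27.7 and 29.9 CPM in WT hosts against 36.4 and 27.8 CPM in PAD4-DN hosts. Here the groups overlapped, with PAD4-DN replicate 1 the high library and PAD4-DN replicate 2 within the WT values. Its log2 fold change was 0.15 (SE 0.17), and -0.06 without PAD4-DN replicate 1. Per length, in transcripts scaled for length (TPM), the ratio of Ints9 to Ints11 was 0.212 and 0.231 in WT and 0.654 and 0.580 in PAD4-DN, and that of Ints9 to Ints4 was 0.359 and 0.428 against 0.754 and 0.933. So Ints9 mRNA was the scarcer of each pair in every library, by a smaller margin in PAD4-DN.

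The promoters of both partner genes are shown because they belong to the module in which Ints9 acts. Each is the longest stretch within 250 bases upstream of the RefSeq start that no GENCODE exon covers, on build GRCm38.p6 (an earlier build than that of the files), 5′ to 3′. Capitals mark CCAAT on either strand, the letters bound by the factor NF-Y. Ints4 lies at chr7:97480706-97480955, plus strand, and Ints11 at chr4:155869441-155869545, plus strand.
Ints4: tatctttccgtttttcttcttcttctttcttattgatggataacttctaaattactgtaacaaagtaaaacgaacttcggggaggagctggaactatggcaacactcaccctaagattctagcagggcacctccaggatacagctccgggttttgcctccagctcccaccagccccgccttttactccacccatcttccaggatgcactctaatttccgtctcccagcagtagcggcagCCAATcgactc
Ints11: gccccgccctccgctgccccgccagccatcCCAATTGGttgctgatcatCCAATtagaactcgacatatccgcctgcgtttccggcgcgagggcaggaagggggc

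The Ints4 stretch held 1 match and the Ints11 stretch 3, of which a pair overlap on opposite strands. Of the 12 Integrator genes with an entry in the RefSeq promoter table, 9 had CCAAT within 250 bases upstream of a start, against 33.8% of all 32851 promoters. GGGCGG, the GC box, was in 9 of the 12 (32.7% of all promoters) and TATAAA, the TATA box, in 0 of the 12 (12.4%), each searched on both strands. The counts of 12 are of genes with a match upstream of a start, while the percentages are of single promoters. These units differ, so the counts and percentages are not like for like. The matches describe these letters only, and no measurement here bears on binding. Ints9, Ints8, Ints10 and Ints5 had no entry.

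Ints1, the largest subunit and part of the backbone of the complex, was at 39.8 and 39.1 CPM in WT hosts against 37.7 and 24.1 CPM in PAD4-DN hosts. PAD4-DN replicate 2 was far below the other 3 libraries, and PAD4-DN replicate 1 only just below WT. The log2 fold change of -0.35 (SE 0.23, 95% interval -0.92 to 0.21) was -0.07 without PAD4-DN replicate 2 and -0.72 without PAD4-DN replicate 1. Ints3, which also forms the SOSS complex of DNA repair with single-strand binding proteins, was at 70.2 and 68.2 CPM in WT hosts against 70.4 and 62.0 CPM in PAD4-DN hosts. Its groups overlapped, with a log2 fold change of -0.06 by edgeR and 0.03 on log2(TPM + 1).

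In the phosphatase module, Ints8, a subunit that holds the phosphatase, was the only one of the 9 with both PAD4-DN libraries above both WT libraries in CPM. It was at 24.97 and 34.03 CPM in WT hosts against 37.7 and 34.6 CPM in PAD4-DN hosts. WT replicate 1 was the low library, while WT replicate 2 almost reached PAD4-DN replicate 2. The log2 fold change was 0.29 (SE 0.18, 95% interval -0.17 to 0.75) with all libraries and 0.09 without WT replicate 1. Ints6, which also sits in this module, was at 47.2 and 49.4 CPM in WT hosts against 47.5 and 57.3 CPM in PAD4-DN hosts. Only PAD4-DN replicate 2 was high, and the log2 fold change of 0.12 (SE 0.14) was -0.03 without it.

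Ints10, Ints13 and Ints14 form a separate arm of the complex that can bind nucleic acids and transcription factors. Ints10 was at 32.8 and 36.5 CPM in WT hosts against 30.3 and 32.0 CPM in PAD4-DN hosts, and Ints14 at 39.8 and 39.1 against 34.2 and 36.0 CPM. Both PAD4-DN libraries were below both WT libraries for each gene, with log2 fold changes of -0.15 (SE 0.13) and -0.17 (SE 0.12). Ints13 was at 45.8 and 54.3 CPM in WT hosts against 50.6 and 49.7 CPM in PAD4-DN hosts, with both PAD4-DN values between the WT values. Its log2 fold change was 0.00 (95% interval -0.34 to 0.35), and -0.01 without the low-count filter.

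**Figure D2:**
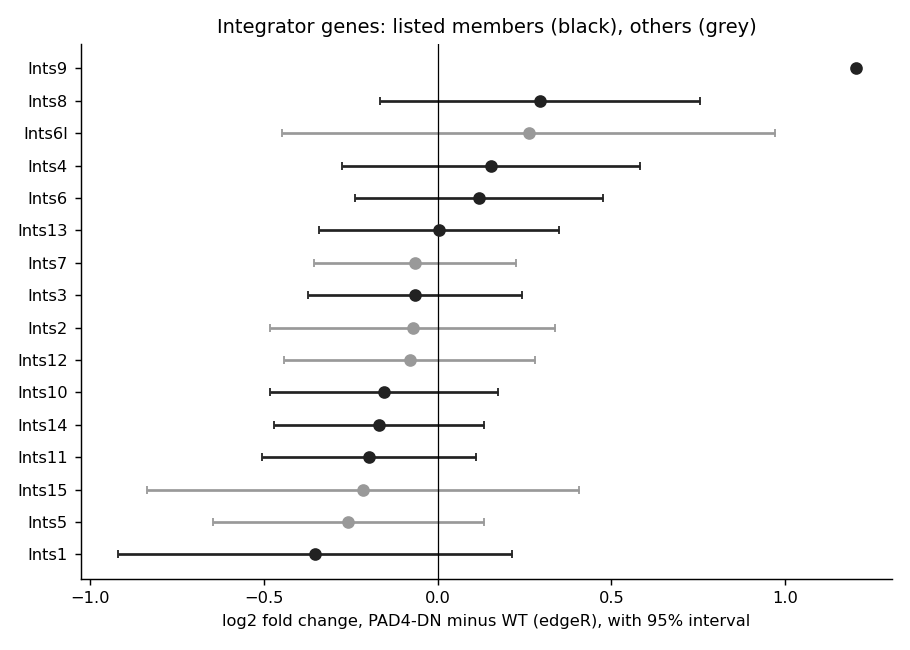
Log2 fold change, PAD4-DN minus WT, by edgeR on the horizontal axis for the 10 listed Integrator genes (black) and 6 further Integrator genes (grey), with 95% intervals except for Ints9, which was chosen on this contrast and is shown as a point only. The intervals of the 15 other genes include 0.

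Between the libraries with high Col1a1 and between those with low Col1a1, the 9 genes did not move as Ints9 did. Of them, 2 were higher in PAD4-DN in both pairs, 4 were lower in both and 3 had unlike signs. The like shares over all genes were not computed, so these counts are a description only. Ints8 had log2 ratios of 0.15 and 0.47 in the high and low pair, and Ints11 had -0.26 and -0.13. Ints1 had -0.05 and -0.72, so its difference lay almost wholly in the low pair.

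The scale mattered for how many of the 9 separated the genotypes. On TPM, 2 were above without overlap (Ints6 and Ints8) and 2 below (Ints11 and Ints14), against 22.9% and 10.5% of all tested genes. Ints1 and Ints10, below both WT libraries in CPM, overlapped with WT in TPM. Positive differences over all genes made up 61.8% on log2(TPM + 1), and 51.5% by edgeR. Ints9 had a difference of 1.15 on log2(TPM + 1), and 5 of the other 9 were then positive.

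The remaining Integrator genes gave a like picture. Ints2 and Ints7 belong to the backbone, Ints5 to the phosphatase module, Ints12 carries a PHD finger, and Ints15 is a recently named subunit that the annotation lists as E130309D02Rik. Ints6l is a paralog of Ints6, and reads the pair share make both values less certain. None of the 6 passed by edgeR. In CPM, 1 of the 6 was above WT without overlap (15.4% of all genes) and 1 below (17.4% of all genes). Of the 6, 1 had a positive log2 fold change. This was Ints6l, the gene above without overlap, at 3.82 and 4.84 CPM in WT hosts against 5.32 and 5.07 CPM in PAD4-DN hosts. Ints5 was at 37.1 and 34.3 CPM in WT hosts against 33.1 and 26.7 CPM in PAD4-DN hosts, below without overlap (log2 fold change -0.26, SE 0.16). Ints2 (-0.07), Ints7 (-0.06), Ints12 (-0.08) and Ints15 (-0.21) overlapped between the genotypes, and Ints12 was 0.02 on log2(TPM + 1). Over the 14 subunits other than Ints9, 4 were positive and 10 negative, against 51.5% positive over all genes. Their median log2 fold change was -0.08.

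TPM allows levels of different genes to be compared. Ints13 was the most abundant of the 10 in every library, at 36.8 and 47.2 TPM in WT and 44.9 and 42.6 TPM in PAD4-DN, and its range did not reach that of the next gene. Ints6, Ints3 and Ints11 followed, at means of 27.7, 25.03 and 24.2 TPM over the 4 libraries, and these neighbours overlapped in range. Ints14 (19.8) and Ints10 (19.3) overlapped each other, as did Ints8 (15.7) and Ints4 (15.7), and Ints10 also overlapped Ints8. The steps from Ints11 to Ints14 and from Ints4 to Ints1 (12.6) were clear of overlap. Ints9 came last with a mean of 9.83 TPM, made of 5.74 ± 0.685 in WT and 13.9 ± 0.731 in PAD4-DN (SD, n = 2 each). In both WT libraries it ranked 10 of 10, and in both PAD4-DN libraries it ranked 9, above Ints1.

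**Figure D3:**
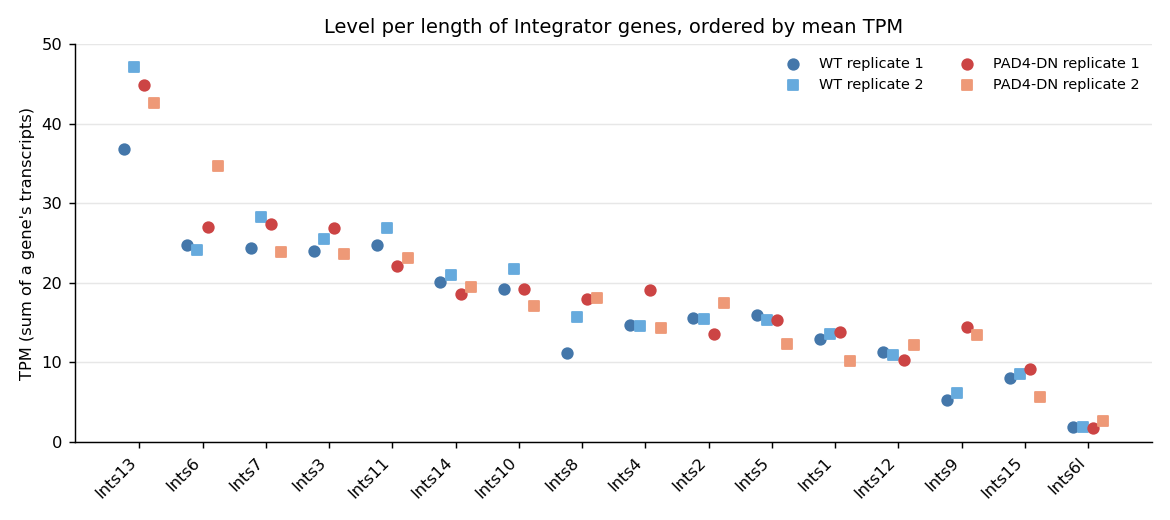
TPM summed over each gene's transcripts (vertical axis) for 16 Integrator genes ordered by their mean, with 1 point per library. Ints13 is highest in all 4 libraries, and Ints9 has both PAD4-DN points above both WT points.

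As a share of the summed TPM of the 10 genes, Ints9 made up 2.71% and 2.88% in WT against 6.44% and 6.19% in PAD4-DN. The summed TPM of the other 9 was 188 and 210 in WT and 210 and 203 in PAD4-DN, so the groups overlapped once Ints9 was set aside. Ints11 made up 12.8% and 12.4% in WT against 9.85% and 10.7% in PAD4-DN.

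The files also give single transcripts. Kallisto divides reads among the transcripts of a gene by an estimate whose error was not used here. Ints9 had 3 transcripts. Nearly all of its reads were assigned to the protein-coding Ints9-201, with 204 and 270 counts for WT against 493 and 530 for PAD4-DN, or 89.6% and 95.5% of the gene's counts against 95.3% and 93.8%. By these estimates, most of the counts by which the genotypes differed were assigned to the coding transcript. Its share of the gene's counts overlapped between the genotypes. The retained-intron transcripts Ints9-202 (14.2 and 5.48 counts against 19.5 and 17.5) and Ints9-203 (9.57 and 7.17 against 4.91 and 17.6) had under 20 counts in every library.

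The 10 genes had 72 transcripts in the files, of which 66 had at least 1 count in some library and 38 were tested. By edgeR over 37639 transcripts, 0 (0%) passed, and 1227 (3.26%) had an unadjusted p under 0.05. No transcript of the 10 genes had at least 100 counts in both libraries of one genotype and under 10 in both of the other. Of the 35 tested transcripts of the other 9 genes, 6 were above WT without overlap and 7 below, against 16.3% and 16.7% of all transcripts, and 17 were positive, against 52%. For the most abundant transcript of each of the 9, the log2 fold change was positive for 3.

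A single one of the 35 had an unadjusted p under 0.05: Ints1-203, a retained-intron transcript of Ints1. It was singled out after its values were seen. Its counts were 22.1 and 30.8 for WT against 65.99 and 70.8 for PAD4-DN, or 2.44% and 3.12% of the gene's counts against 8.54% and 12.3%. Its log2 fold change was 1.47 (SE 0.44), with an adjusted p of 0.9999 by edgeR. The main coding transcript Ints1-201 was at 26.2 and 30.6 CPM in WT hosts against 24.9 and 13.2 CPM in PAD4-DN hosts, on the other side. Retained-intron transcripts as a class were also higher in both PAD4-DN libraries. They took 2.24% and 2.38% of counts for WT against 2.66% and 2.56% for PAD4-DN, and their part in the Ints1-203 values was not tested. Ints6-202, a coding transcript of Ints6 also picked after its values were seen, was at 13.2 and 12.3 CPM in WT hosts against 14.9 and 19.9 CPM in PAD4-DN hosts, above without overlap, while Ints6-201 (31.6 and 34.2 against 29.5 and 32.3 CPM) overlapped.

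**Figure D4:**
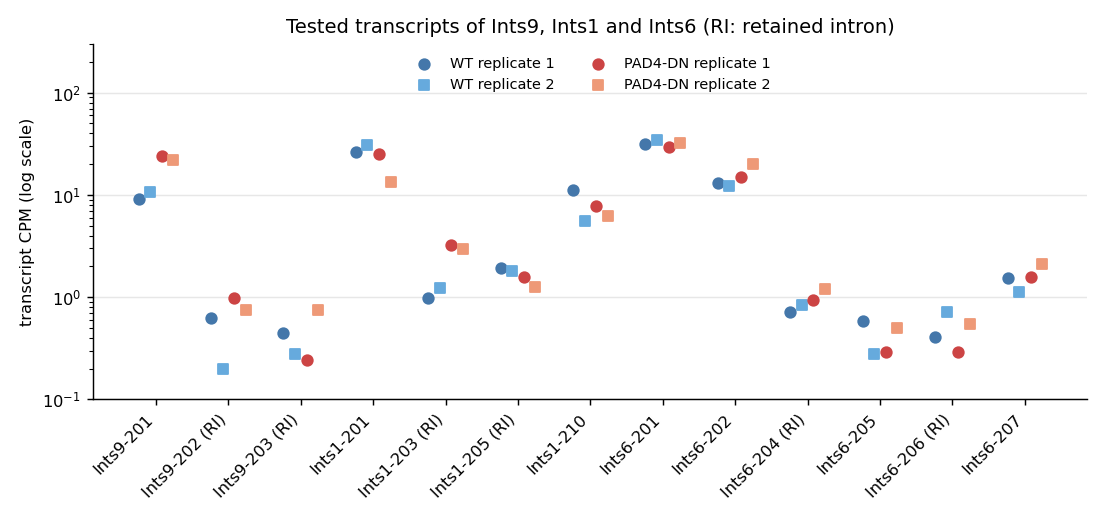
CPM on a log scale (vertical axis) for the tested transcripts of Ints9, Ints1 and Ints6, with 1 point per library and RI for retained intron. Ints9-201 and Ints1-203 are among those with both PAD4-DN points above both WT points, and Ints1-201 is among those with both below.

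Ints9 was also set beside its neighbours on the chromosome and the genes with the most similar profile. The nearest protein-coding genes in RefSeq order are Hmbox1, a homeobox gene, and Extl3, an exostosin-like glycosyltransferase. Hmbox1 was at 35.7 and 42.8 CPM in WT hosts against 42.1 and 42.0 CPM in PAD4-DN hosts, and Extl3 at 133 and 125 against 126 and 120 CPM, and both overlapped between the genotypes. By Euclidean distance between centred log2 CPM values over the 4 libraries, the 5 nearest of 9674 coding genes were Stxbp6 (distance 0.438), S100a16 (0.457), Gm10717 (0.467), Ptgfr (0.472) and Arrdc3 (0.491). Arrdc3, an alpha-arrestin, was at 55.8 and 48.5 CPM in WT hosts against 91.2 and 88.6 CPM in PAD4-DN hosts, and Ptgfr, the prostaglandin F receptor, at 5.89 and 6.74 against 13.2 and 9.43 CPM. Gm10717 is a predicted gene, and reads shared with similar copies make its value uncertain. Among the subunits Ints8 came closest, at rank 349, followed by Ints4 at 1548 and Ints6 at 2154. Ints11 was at rank 7557 and Ints1, the farthest, at 9300. The profile of Ints9 is mostly its difference between the genotypes, so nearness picks genes with a like difference. The ranks are thus a description, with no test.

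Genes that work with Integrator were taken from lists of its partners and related machinery, and edgeR called none of them. Of 12 partners, 6 were positive and 6 negative by edgeR, while 9 were positive on log2(TPM + 1), where 61.8% of all genes were. Nabp2, the single-strand DNA binding protein that joins Ints3 in SOSS, was at 35.7 and 34.9 CPM in WT hosts against 26.1 and 29.8 CPM in PAD4-DN hosts, and Ppp2r1a, the phosphatase scaffold, at 271 and 242 against 229 and 211 CPM. Zfp609, a nuclear Integrator-binding protein, was at 112 and 102 CPM in WT and 114 in both PAD4-DN libraries. Of 19 cleavage and polyadenylation genes, 8 were positive by edgeR (51.5% of all genes). In CPM, 0 were above without overlap (15.4% of all genes) and 5 below (17.4% of all genes). Among the 5 were Cpsf1 (91.5 and 98.5 against 80.1 and 75.4 CPM), Sympk and Cstf1. Cpsf3, the endonuclease of general mRNA cleavage and a relative of Ints11, was at 142 and 124 against 108 and 127 CPM, and Elac2, a tRNA-processing enzyme of the same superfamily, at 40.9 and 36.4 against 32.8 and 27.0 CPM. Dclre1a, also of that superfamily, lay on the other side, at 19.0 and 17.3 against 19.2 and 20.4 CPM. Of the 9 genes listed for it, Ints9 and Ints11 included, 4 were positive by edgeR (51.5% of all genes). In CPM, 2 of the 9 were above without overlap (15.4% of all genes) and 2 below (17.4% of all genes).

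RNA polymerase II, the enzyme that Integrator binds, gave the list with the largest share of genes separated by genotype. Both PAD4-DN libraries were below both WT libraries for 10 of its 12 subunit genes, in CPM and in TPM, against 17.4% and 10.5% of all genes. The largest subunit Polr2a was at 523 and 564 CPM in WT against 436 and 423 CPM in PAD4-DN hosts, a log2 fold change of -0.34 (SE 0.13). Polr2g was at 39.7 in both WT libraries and at 33.0 and 33.4 CPM in PAD4-DN, and Polr2j at 22.7 and 21.7 against 19.2 and 18.7 CPM. The median log2 fold change of the 12 was -0.22, beside 0.01 over all genes, and 0 of them passed by edgeR, with an adjusted p of 0.988 for each of the 3 named. On log2(TPM + 1) the median was -0.12, beside 0.06, and by edgeR it lay between -0.26 and -0.16 with 1 library left out.

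Pausing and elongation factors had 5 of 17 positive by edgeR (51.5% of all genes) and 8 of 17 on log2(TPM + 1) (61.8% of all genes). In CPM, 2 of the 17 were above WT without overlap (15.4% of all genes) and 4 below (17.4% of all genes). Among them were the pausing factor subunit Nelfe (40.6 and 37.5 against 33.9 and 32.7 CPM) and the elongation factor subunit Supt4a (32.1 and 30.8 against 27.8 and 23.8 CPM), both below WT, and the elongation cyclin Ccnt2 (38.1 and 46.4 against 48.4 and 56.1 CPM) above it, all without overlap. Of 16 genes for assembly and export of small nuclear ribonucleoproteins, whose RNAs Integrator processes, 3 were positive by edgeR (51.5% of all genes). Their median log2 fold change was -0.12. On log2(TPM + 1), 9 of the 16 were positive (61.8% of all genes), with a median of 0.02, beside 0.06 over all genes. The sign of the list's median thus changed with the scale, but the median lay below that of all genes on both. Gemin5, which recognises those RNAs, was at 77.0 and 76.8 CPM in WT hosts against 64.3 and 58.0 CPM in PAD4-DN hosts, and the assembly factor Clns1a at 67.4 and 71.5 against 57.8 and 62.2 CPM. Gemin8 lay on the other side, at 8.75 and 8.84 against 13.7 and 9.22 CPM. The 7 factors of small nuclear RNA promoters (4 positive) and the 6 histone mRNA processing genes (4 positive) had medians of 0.02 each, and neither list kept its sign. The histone median was -0.15 without PAD4-DN replicate 2 (1 of 6 positive) and 0.18 without PAD4-DN replicate 1. The promoter factor median was -0.14 without WT replicate 2, 0.12 without PAD4-DN replicate 1 and -0.09 on log2(TPM + 1). Of the 7 promoter factors, 1 was above WT without overlap in CPM (15.4% of all genes) and 1 below (17.4% of all genes). Snapc3, the one above, was at 15.7 and 16.2 CPM in WT hosts against 17.9 and 20.2 CPM in PAD4-DN hosts. Snapc2, the one below, was at 17.1 and 15.2 against 15.1 and 12.5 CPM.

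**Figure D5:**
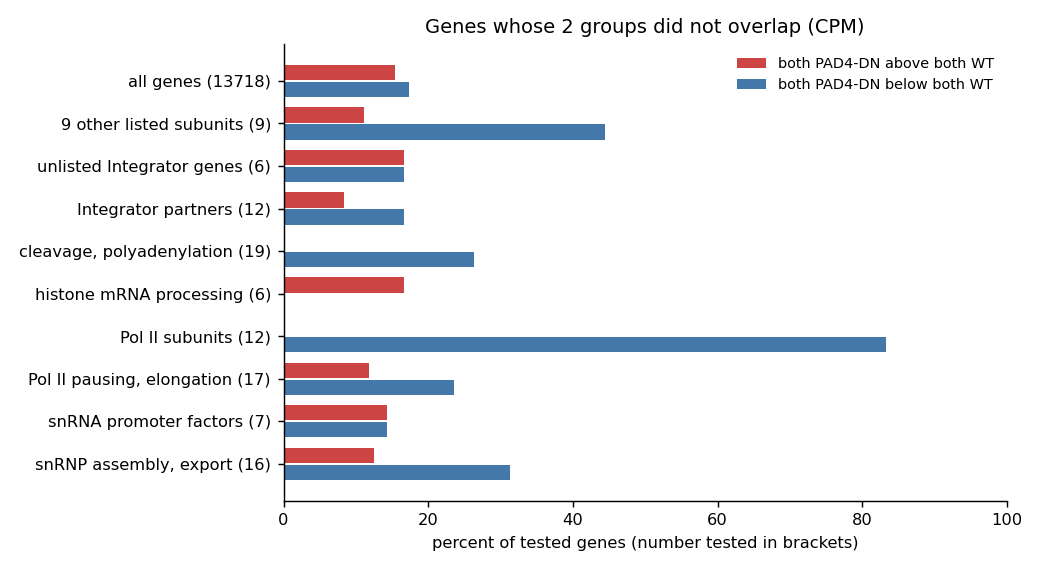
Percent of tested genes (horizontal axis) with both PAD4-DN libraries above (red) or below (blue) both WT libraries in CPM, for all genes and for lists of Integrator-related genes, with the number tested in brackets. Pol II subunits have 10 of 12 genes below and 0 above, and all genes have 15.4% above and 17.4% below.

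Immediate early genes, at several of which Integrator is known to act, had 13 of 15 positive (51.5% of all genes) with a median log2 fold change of 0.79, but only 1 was above WT without overlap (15.4% of all genes). Dusp1 was at 20.5 and 32.1 CPM in WT hosts against 77.4 and 25.7 CPM in PAD4-DN hosts, and Egr2 at 1.10 and 1.19 against 5.03 and 0.587 CPM. PAD4-DN replicate 1 was the high library for both, and without it the median of the list was -0.26, with 2 of 15 positive. The median was 0.15 without WT replicate 1, 1.34 without WT replicate 2, and 1.40 when PAD4-DN replicate 2 was left out. Egr3 was the exception to the overlap, at 11.4 and 11.1 CPM in WT hosts against 14.2 and 13.3 CPM in PAD4-DN hosts.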

How the data were processed

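Per the labels' protocols, poly-A libraries that keep the strand were sequenced from one end. The authors used kallisto and GRCm39, per the submitters' processing notes, with settings not given in the sources used here, the strand setting and annotation among them. The authors deposited estimated counts, not normalized, and TPM per transcript. Transcripts were joined to genes by identifier with GENCODE M21 (116408 of 117486 matched), and estimated counts were summed per gene and rounded. edgeR 4.0.16 in R 4.3.3 (TMM, filterByExpr, quasi-likelihood test, Benjamini-Hochberg at 0.05) was fitted over all genes and again over all transcripts. CPM uses TMM-scaled totals. Alternatives used DESeq2 1.42.0, limma 3.58.1, other scalings and filters, a block and each library left out; the scripts were tested on simulated data. Members and lists were chosen with earlier results of these data known. Named were all Integrator genes, up to 3 genes of smallest p per list, the 5 nearest profiles with a mean of at least 5 CPM, and both chromosome neighbours; not all are printed. Transcripts named were those of Ints9 and the most abundant one of a gene, except Ints1-203, Ints6-202 and E130309D02Rik-203, which were chosen after their values were seen. The Col1a1 pairs, motifs and promoters were chosen after values were seen.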

Additional observations from a re-analysis of the deposited data

How the results depend on the processing

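The number of genes called was 0 by edgeR, 11 by DESeq2 on the same genes, 10 by DESeq2 on all genes with at least 1 count and 10 by edgeR without the low-count filter, and between 0 and 2 when 1 library was left out, the 2 being without WT replicate 2. For transcripts it was 0 by edgeR, 171 by DESeq2 and 3 without the filter. The cause of these differences was not tested. With a replicate block, 0 genes and 0 transcripts passed and 4 of the 9 subunits were above WT; same-numbered libraries correlated at -0.34 in their deviations, and with crossed numbers, chosen after seeing the data, the block again gave 0 genes and 0 transcripts. Ints9 had a log2 fold change between 1.12 and 1.28 over the 14 alternatives. Of the other 9 subunits 0 were called in any of them (lowest adjusted p 0.681), 3 to 5 were above WT with all libraries and 2 to 4 when 1 library was left out, the 2 being without PAD4-DN replicate 1. Of 224 values of 16 Integrator genes under these alternatives, 15 had the other sign, 8 of them with 1 library left out. With 1 library left in a group, that library is assumed to vary like the other group. Depth limits the lowest transcripts, such as Ints9-203.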

Other observations

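Retained-intron transcripts, which keep intron sequence that the mature mRNA lacks, had a positive log2 fold change in 68.4% of the 7618 tested over the whole transcriptome, against 46.1% of 24017 protein-coding transcripts. The share was between 58.7% and 70.8% with 1 library left out, and between 43.6% and 48.6% for protein-coding transcripts. Among Integrator genes other than Ints9, 10 of 16 tested retained-intron transcripts and 9 of 28 protein-coding ones were positive. Of the Ints15 gene, the coding transcript E130309D02Rik-201 was at 11.5 and 11.8 CPM for WT against 9.76 and 6.85 CPM for PAD4-DN, while the retained-intron transcript E130309D02Rik-203, picked after its values were seen, was at 2.02 and 1.44 against 3.07 and 2.08 CPM. Transcripts of a library are not independent, and no test was made of the class.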
